A study of Mus musculus with 24 samples.

Results

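The miR-106b-25 cluster comprises 3 microRNA (miRNA) hairpins, Mir106b, Mir93 and Mir25, in 1 intron of Mcm7, and was followed through its 6 mature arms in mouse subcutaneous adipose tissue, a white fat depot. The arms were chosen by name from the deposited count table, which lists 1907 mature miRNAs, and all 6 were present. All 6 were among the 558 miRNAs that passed the filter on low counts. Tissue was taken on a high-fat diet and on a control diet after 1 day, 1 week and 3 weeks, with 4 libraries of total small RNA in each of the 6 groups and 24 in all. The labels give no strain, sex, age, genotype or diet composition, and no agent other than the diet. Whether the 4 libraries of a group are 4 animals is not stated, so the p-values describe spread between samples that may be technical repeats. The series is titled for a fall of DICER, the enzyme that cuts most miRNA hairpins, on the high-fat diet, and asks which miRNAs differ with diet and time.

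Mcm7 encodes a subunit of the helicase that unwinds DNA for replication, and the cluster is transcribed within it. DICER cuts each hairpin to a duplex, of which 1 strand, the guide, is usually kept by an Argonaute protein while the other, the passenger, is mostly lost. The guide finds messenger RNAs mainly by its seed, the bases just after its first. Known targets of the cluster in mammals include Cdkn1a, an inhibitor of the cell cycle, and Bcl2l11, a promoter of cell death. In mouse fat, miR-93 is known to repress Tbx3 and Sirt7 in adipocyte precursors, and miR-106b and miR-93 have been described as restraining brown adipocyte differentiation.

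The 6 mature sequences are shown because their seeds decide how the arms group; capitals mark the seed, bases 2 to 8 from the 5′ end, and the sequences are those of RefSeq on GRCm38.p6, where all 6 names matched.
mmu-miR-106b-5p: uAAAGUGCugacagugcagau
mmu-miR-93-5p: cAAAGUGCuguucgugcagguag
mmu-miR-25-3p: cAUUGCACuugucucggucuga
mmu-miR-106b-3p: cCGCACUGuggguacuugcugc
mmu-miR-93-3p: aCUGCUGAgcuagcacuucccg
mmu-miR-25-5p: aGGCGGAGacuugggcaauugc
The guide arms of the first 2 hairpins shared the seed AAAGUGC, although miR-106b-5p and miR-93-5p differed at 5 of 21 aligned bases. miR-25-3p carried another seed, AUUGCAC. The seeds of the other arms, miR-106b-3p, miR-93-3p and miR-25-5p, were found in no other mature mouse miRNA of the RefSeq table.

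Both guide seeds recur in related clusters elsewhere in the genome, and the relatives that enter the comparisons are shown with their seeds in capitals, since they carry the same seeds under other promoters.
miR-17-5p: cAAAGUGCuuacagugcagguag
miR-20a-5p: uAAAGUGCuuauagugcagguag
miR-106a-5p: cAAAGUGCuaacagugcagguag
miR-20b-5p: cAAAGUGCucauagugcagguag
miR-92a-3p: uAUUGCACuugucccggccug
miR-32-5p: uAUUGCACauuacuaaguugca
miR-363-3p: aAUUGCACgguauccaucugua
miR-92b-3p: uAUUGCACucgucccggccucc
miR-106b-5p differed from miR-17-5p at 3 of 21 bases, and miR-25-3p differed from miR-92a-3p at 3 of 21 bases. How the authors' counting treated reads that match several of these names is not given in the sources used here.

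The 3 hairpins lie close together on chromosome 5, on the minus strand, and are shown with both mature arms in capitals to give the position of each counted arm.
Mir106b: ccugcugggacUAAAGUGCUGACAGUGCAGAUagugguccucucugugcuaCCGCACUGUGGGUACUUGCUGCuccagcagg
Mir93: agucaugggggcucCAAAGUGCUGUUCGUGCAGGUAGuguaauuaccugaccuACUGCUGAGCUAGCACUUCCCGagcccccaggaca
Mir25: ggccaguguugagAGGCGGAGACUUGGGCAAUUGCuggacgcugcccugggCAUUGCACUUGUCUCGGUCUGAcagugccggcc
Mir106b occupies chr5:138165737-138165818, Mir93 occupies chr5:138165523-138165610 and Mir25 occupies chr5:138165321-138165404 (GRCm38). Gaps of 126 and 118 bases separate them, and together they span 498 bases. All lie in intron 13 of a 15-exon Mcm7 transcript, at chr5:138165162-138165909, inside Mcm7 at chr5:138164583-138172422.

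Library totals ran between 1.99 M and 16.3 M counts with a median of 5.30 M, and the high-fat week 1 libraries held 2.54 to 4.15 M counts, against 5.32 to 16.3 M in the control week 1 libraries. Levels are given as CPM, counts per M counts after TMM scaling of the totals, on which a floor of 3 counts equalled 0.184 CPM in the deepest and 1.51 CPM in the shallowest library. Adipocyte-associated miRNAs, including miR-148a-3p, miR-378a-3p and miR-193b-3p, had counts for 7 of 7 listed names. The 6 of these that passed the filter summed to 125077 to 284261 CPM per library. Skeletal muscle miRNAs had counts for 6 of 6 listed names, and the 5 that passed the filter summed to 24.04 to 80409 CPM. The 3 libraries that stood highest were replicate 2 of high-fat week 1, replicate 4 of high-fat week 3 and replicate 4 of control week 1. In bulk tissue, fewer cells of a type and less RNA per cell cannot be told apart.

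The cluster was led by its 3 guide arms, in the order miR-25-3p, miR-93-5p and miR-106b-5p. miR-25-3p averaged 2589 CPM over the 24 libraries and ranked 46 of 558, miR-93-5p averaged 1117 CPM and ranked 68, and miR-106b-5p averaged 425 CPM and ranked 113. Among the opposite arms, miR-106b-3p stood near its guide at 307 CPM, whereas miR-93-3p averaged 15.8 CPM and miR-25-5p averaged 5.34 CPM. The raw counts behind them ran from 5203 to 35883 for miR-25-3p, 2299 to 16408 for miR-93-5p, 837 to 5948 for miR-106b-5p, 790 to 5155 for miR-106b-3p, 25 to 229 for miR-93-3p and 5 to 74 for miR-25-5p. Summed over the 6 arms, the cluster gave 3396 to 5868 CPM per library. Of that sum, miR-25-3p held 50.9 to 63.2%, miR-93-5p 21.7 to 30.9%, miR-106b-5p 7.44 to 12.4% and miR-106b-3p 4.19 to 9.88%.

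**Figure D1:**
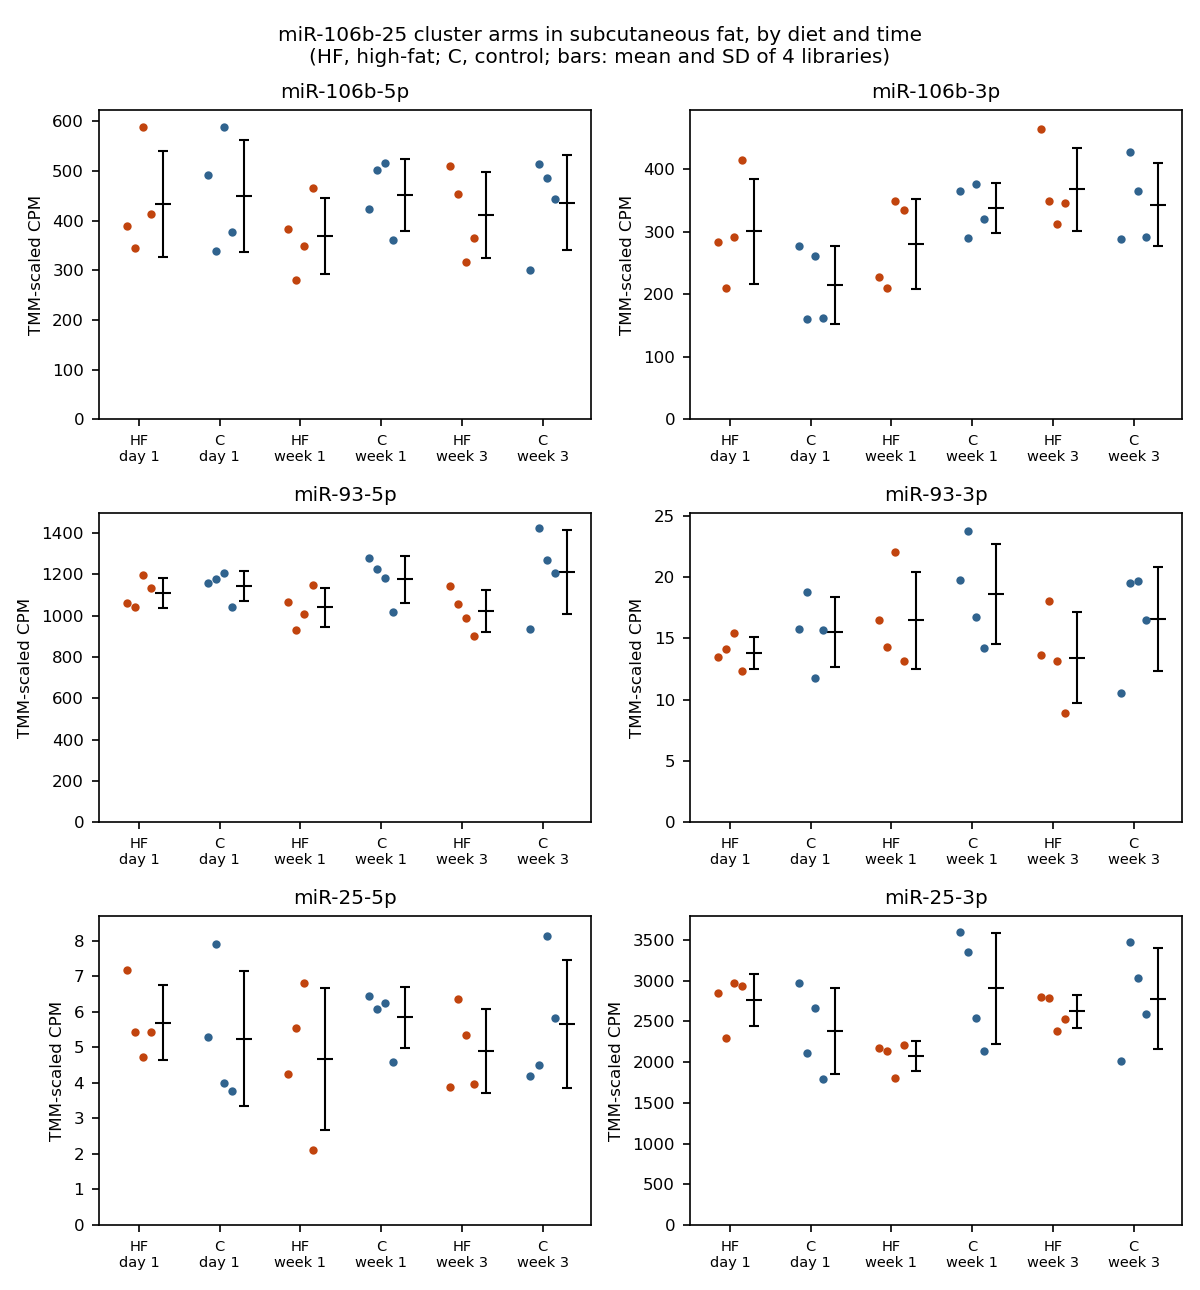
TMM-scaled CPM of the 6 arms in every library, by diet (HF, high-fat; C, control) and time, with the mean and SD of 4 libraries beside the points. miR-93-5p stayed between 900 and 1427 CPM in all 24 libraries, miR-25-3p of the high-fat week 1 libraries lay at 1801 to 2205 CPM, and miR-106b-3p of the control day 1 libraries at 160 to 277 CPM.

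miR-93-5p varied little between libraries of a group. The within-group SD of its log2 CPM was 0.15, which ranked 7 of 558 from the lowest and 5 among the 186 miRNAs with a mean of at least 100 CPM, where the median SD was 0.31. The other arms had within-group SDs of 0.26 for miR-25-3p, 0.32 for miR-106b-5p and for miR-93-3p, 0.33 for miR-106b-3p and 0.42 for miR-25-5p, beside a median of 0.43 over all 558. At day 1 miR-93-5p averaged 1109 ± 71.8 CPM on the high-fat and 1145 ± 72.7 CPM on the control diet (SD, n = 4 in each group throughout). At week 1 it averaged 1040 ± 92.8 CPM on the high-fat and 1177 ± 113 CPM on the control diet, and at week 3 it averaged 1022 ± 103 CPM on the high-fat and 1210 ± 204 CPM on the control diet. The high-fat mean was the lower one at each time, and neighbouring groups in the order of the means overlapped.

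At week 1 the high-fat libraries had less miR-25-3p than most control libraries. Its level was 2171, 2135, 1801 and 2205 CPM in the high-fat libraries, against 3594, 3356, 2537 and 2143 CPM in the control libraries. The groups overlapped through the lowest control library, replicate 4, which lay below the high-fat libraries of 2171 and 2205 CPM. The log2 fold change was -0.48 ± 0.19 (SE), a level 0.715 times that of the control diet with a 95% interval of 0.547 to 0.934 times. With edgeR's quasi-likelihood test its unadjusted p was 0.0163, and after Benjamini-Hochberg adjustment over the 558 miRNAs it was 0.225, so miR-25-3p did not pass.

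The other 5 arms also had fitted values below 0 at week 1. Their log2 fold changes were -0.29 ± 0.22 for miR-106b-5p, -0.27 ± 0.23 for miR-106b-3p, -0.18 ± 0.14 for miR-93-5p, -0.17 ± 0.24 for miR-93-3p and -0.28 ± 0.31 for miR-25-5p. The median over the 6 arms was -0.27, beside -0.02 over the 558 tested miRNAs, of which 51.4% had values below 0. miR-106b-5p stood at 382, 280, 349 and 465 CPM in the high-fat libraries, against 423, 502, 516 and 362 CPM in the control libraries. Both diets spanned a common range from 362 to 465 CPM. No arm passed the test at week 1 (0%), nor did any of the 558 miRNAs (0%) with edgeR, although 79 had an unadjusted p under 0.05. By limma-voom with sample weights 17 of the 558 passed and by DESeq2 0 passed, and none was a cluster arm.

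At day 1 the cluster had no common direction, with 3 arms above and 3 below 0, beside 51.6% of the 558 miRNAs below 0. miR-106b-3p was measured at 284, 210, 292 and 415 CPM in the high-fat libraries, against 277, 160, 261 and 163 CPM in the control libraries, and the groups overlapped. Its log2 fold change was 0.48 ± 0.23, with an adjusted p of 0.982 by edgeR. miR-25-3p averaged 2765 ± 315 CPM on the high-fat and 2384 ± 530 CPM on the control diet, which gives a log2 fold change of 0.21 ± 0.19. The remaining arms lay between -0.16 and 0.12. No arm passed (0%), and 0 of the 558 miRNAs did (0%) with edgeR, with DESeq2 and with limma-voom, where 17 had an unadjusted p under 0.05 by edgeR.

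At week 3, 5 of the 6 arms had values below 0, as did 58.1% of the 558 miRNAs. miR-93-5p stood at 1143, 1056, 990 and 900 CPM in the high-fat libraries, against 937, 1427, 1270 and 1208 CPM in the control libraries. Control replicate 1 was the exception among otherwise higher control libraries. The log2 fold change was -0.24 ± 0.14, with an unadjusted p of 0.0888 and an adjusted p of 0.999 by edgeR. miR-25-3p, at 2623 ± 205 CPM on the high-fat and 2779 ± 622 CPM on the control diet, had a log2 fold change of -0.08 ± 0.19. miR-106b-3p was the arm above 0, at 0.10 ± 0.23. None of the arms (0%) and 0 of the 558 miRNAs passed (0%) with edgeR, DESeq2 and limma-voom, and 10 had an unadjusted p under 0.05 by edgeR.

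**Figure D2:**
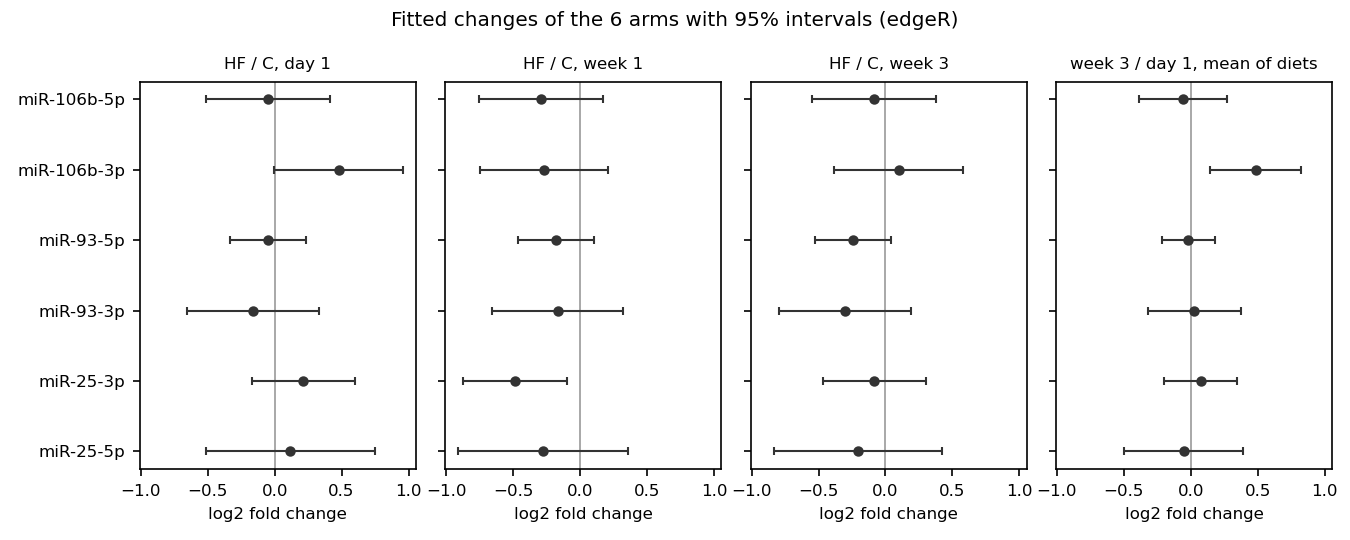
Fitted log2 fold changes of the 6 arms with 95% intervals from edgeR, for high-fat over control at each time and for week 3 over day 1 averaged over the diets. The interval of miR-25-3p at week 1 lies below 0, from -0.87 to -0.10, and that of miR-106b-3p for week 3 over day 1 lies above 0, from 0.14 to 0.82; neither passed after adjustment.

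Averaged over the 3 times, the diet differences of the arms lay between -0.21 and 0.10, and 5 of 6 were below 0, as were 59.7% of the 558 miRNAs. miR-93-5p had the narrowest interval, at -0.16 ± 0.08 and a level 0.897 times that of the control diet (95% interval 0.801 to 1.01), with an adjusted p of 0.993 by edgeR. No arm passed (0%), nor did any of the 558 miRNAs (0%) with edgeR, DESeq2 or limma-voom, and 18 had an unadjusted p under 0.05 by edgeR.

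The diet difference at week 1 was set against that at day 1 in the same fit. For miR-25-3p it was lower at week 1 by -0.70 ± 0.26 on the log2 scale, an unadjusted p of 0.0144 and an adjusted p of 0.289 by edgeR. miR-106b-3p gave -0.75 ± 0.33, with an adjusted p of 0.306, and the other 4 arms lay between -0.40 and -0.01. All 6 were thus below 0, as were 49.3% of the 558 miRNAs. In a joint test of all 3 times, miR-25-3p had an unadjusted p of 0.0461 and an adjusted p of 0.567. No arm passed in either test (0%), as was the case for all 558 miRNAs (0%) with edgeR, with 83 and 41 unadjusted p-values under 0.05. DESeq2 and limma-voom passed 0 of them as well.

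Over time on the high-fat diet, miR-25-3p was lowest at week 1. It stood at 2847, 2299, 2972 and 2942 CPM at day 1, at 2171, 2135, 1801 and 2205 CPM at week 1, and at 2797, 2787, 2377 and 2532 CPM at week 3. In TMM-scaled CPM, the 4 libraries of week 1 lay below all libraries of both other times. For week 1 over day 1 the log2 fold change was -0.41 ± 0.19, with an adjusted p of 0.208 by edgeR, and 5.73% of the 558 miRNAs were likewise lower at week 1 without overlap. For week 3 over week 1 it was 0.34 ± 0.19, with an adjusted p of 0.404, and 2.51% were higher without overlap. These comparisons share the week 1 libraries. As a share of library totals, without TMM scaling, the times overlapped. Week 1 replicate 2 (0.241%) lay above day 1 replicate 2 (0.238%) and week 3 replicate 3 (0.230%). On the control diet miR-25-3p had no such low point, with 2384 ± 530 CPM at day 1, 2907 ± 682 CPM at week 1 and 2779 ± 622 CPM at week 3.

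miR-106b-3p, the arm opposite miR-106b-5p, had its lowest mean in the control day 1 libraries. On the control diet it stood at 277, 160, 261 and 163 CPM at day 1, at 365, 290, 377 and 320 CPM at week 1, and at 289, 428, 365 and 292 CPM at week 3. In TMM-scaled CPM, all libraries of week 1 and of week 3 lay above all libraries of day 1. The same was the case for 4.84% and 3.76% of the 558 miRNAs. As a share of library totals, only week 1 stayed without overlap. Week 3 replicates 1 (0.0269%) and 4 (0.0263%) then lay below day 1 replicate 1 (0.0296%). The log2 fold changes were 0.65 ± 0.23 at week 1 over day 1 and 0.67 ± 0.23 at week 3 over day 1, with adjusted p of 0.239 and 0.190 by edgeR, and both share the day 1 libraries. On the high-fat diet it averaged 300 ± 84.7 CPM at day 1, 280 ± 72.1 CPM at week 1 and 367 ± 66.6 CPM at week 3, with overlapping groups.

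Averaged over the diets, miR-106b-3p at week 3 was 0.48 ± 0.16 above day 1 on the log2 scale, a level 1.40 times that of day 1 with a 95% interval of 1.104 to 1.77 times. By diet, the value was 0.67 ± 0.23 on the control and 0.29 ± 0.23 on the high-fat diet, where the adjusted p was 0.511 by edgeR. For the average, the adjusted p was 0.0673 by edgeR, so miR-106b-3p did not pass. It did pass by DESeq2 (0.45, adjusted p 0.0474) and by limma-voom (0.57, adjusted p 0.0133). With each library left out in turn, it passed by edgeR in 1 case, without high-fat day 1 replicate 4 (0.53, adjusted p 0.0485). Over these omissions the adjusted p by edgeR ran from 0.0485 to 0.156, and the log2 fold change from 0.37 to 0.54. In the same contrast its guide miR-106b-5p had -0.06 ± 0.16, miR-93-5p -0.02 ± 0.10 and miR-25-3p 0.07 ± 0.13. With edgeR 0 of the 6 arms passed (0%), whereas 40 of the 558 miRNAs did (7.17%), 19 higher and 21 lower. Marker miRNAs were read in the same contrast. Values above 0 were found for 5 of 5 tested skeletal muscle arms (median 2.34, 0 passing), 5 of 5 erythrocyte arms (0.78, 1 passing), 4 of 4 fibroblast arms (0.28, 0 passing) and 2 of 2 tested endothelium arms (0.49, 1 passing), and values below 0 for 9 of 12 leukocyte arms (-0.19, 0 passing). The other lists were mixed. Values above 0 were found for 1 of 4 smooth muscle and pericyte arms (median -0.08, 1 passing) and 4 of 7 epithelium arms (0.06, 0 passing). Among tested adipocyte arms 3 of 6 were above 0 (median 0.02, 0 passing). The part of these markers in the value of miR-106b-3p was not tested. In the single-diet time comparisons no arm passed either, beside 0 of 558 (0%) in each of the 3 high-fat comparisons and in control week 3 over week 1, 1 (0.179%) in control week 1 over day 1 and 2 (0.358%) in control week 3 over day 1. In the comparisons with 0 passing by edgeR, unadjusted p-values under 0.05 numbered 115, 80 and 88 for high-fat week 1 over day 1, week 3 over week 1 and week 3 over day 1, and 13 for control week 3 over week 1. DESeq2 and limma-voom passed 32 and 44 miRNAs in the first and 11 and 14 in the third, and 0 in the second and the last.

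The balance of the 2 arms of each hairpin was compared within each library, where the scaling of the total cancels. It is given as the log2 ratio of the 5p to the 3p count, with 0.5 counts added to each. In Mir106b the 5p arm made up 49.9 to 69.9% of the arm pair, and stood at 63.9, 68.0, 69.3 and 69.9% in the control day 1 libraries. The 3 highest shares of the 24 libraries were among these, and the lowest of these was exceeded by high-fat day 1 replicate 3 at 66.8%. The log2 ratio averaged 0.54 ± 0.43 on the high-fat and 1.07 ± 0.17 on the control diet at day 1. At week 1 it averaged 0.41 ± 0.31 on the high-fat and 0.41 ± 0.28 on the control diet, and at week 3 0.15 ± 0.16 on the high-fat and 0.34 ± 0.23 on the control diet. On the control diet all libraries of week 1 and of week 3 lay below all libraries of day 1, and 7.19% and 4.79% of the 167 hairpins with both arms tested were likewise lower without overlap. These ratios are descriptions, and no test was run on them.

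The other hairpins were one-sided. In Mir93 the 5p arm held 97.9 to 99.0% of the arm pair, and in Mir25 it held 0.0960 to 0.376%, the 3p arm being the abundant one. The group means of the log2 ratio of Mir93 lay between 5.99 and 6.31, with a within-group SD of 0.27. Those of Mir25 lay between -9.06 and -8.84, a range smaller than the within-group SD of 0.48. Neither hairpin had diets without overlap at any time. The median SD over the 167 hairpins was 0.44. The scarce arm of Mir25 rests on as few as 5 counts in a library, so its ratio carries the largest counting error of the 3.

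**Figure D3:**
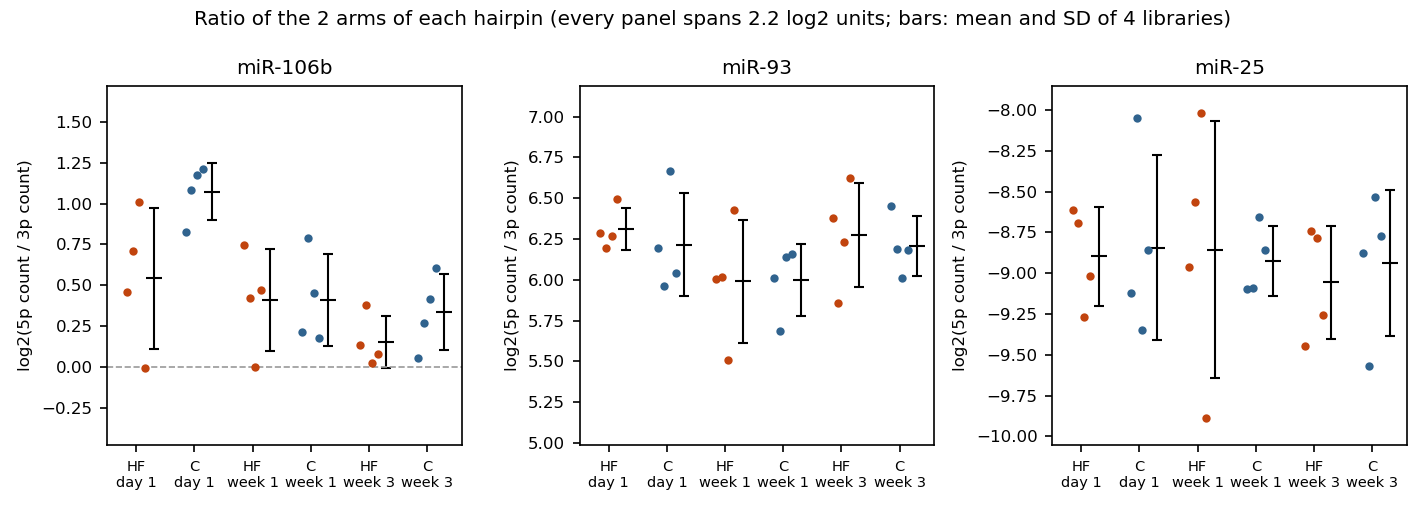
Log2 ratio of 5p to 3p counts of each hairpin in every library, by diet (HF, high-fat; C, control) and time, with the mean and SD of 4 libraries; each panel spans the same number of log2 units around its own level. The control day 1 libraries of Mir106b lie at 0.83 to 1.21, above the control libraries of week 1 and week 3. Over all libraries Mir93 averages 6.17, with single libraries from 5.51 to 6.66. Mir25 averages -8.92, with single libraries from -9.89 to -8.02.

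The guide arms varied together over the 24 libraries. Pearson's r of log2 CPM was 0.760 for miR-106b-5p with miR-93-5p (rho 0.757), 0.650 for miR-106b-5p with miR-25-3p (rho 0.698) and 0.679 for miR-93-5p with miR-25-3p (rho 0.722). Permutation p-values, two-sided and adjusted over the 6 relations computed, were 6e-05, 0.00128 and 0.00072 for r, and 0.00033, 0.00046 and 0.00033 for rho. The permutations set each value against no relation between the arms, so these p-values do not show a relation particular to the cluster. Centred within the 6 groups, r was 0.782, 0.656 and 0.761, and without the 2 libraries farthest from the median of the first-named arm it was 0.728, 0.670 and 0.698.

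The 2 arms of each hairpin were compared in the same way. For miR-106b-5p with miR-106b-3p r was 0.427 (adjusted permutation p 0.0448) and rho 0.410 (adjusted permutation p 0.0562), and r was 0.628 centred within groups. For miR-93-5p with miR-93-3p r was 0.569 (adjusted permutation p 0.00575) and rho 0.537 (adjusted permutation p 0.0109). Without the 2 libraries farthest from the median, r was 0.437 for the miR-106b pair and 0.418 for the miR-93 pair, both with an adjusted permutation p of 0.0630. The miR-106b call was thus lost without a lower r, while for miR-93 the r was lower as well. With library totals in place of TMM, r of the miR-93 pair was 0.783 (adjusted permutation p 0.00014), above the 0.708, 0.666 and 0.733 of the guide pairs in the order given above. The order of the relations therefore depended on the scaling, and differences between them were not tested. For miR-25-3p with miR-25-5p r was 0.239 and rho 0.231, with adjusted permutation p of 0.263 and 0.273. All pairs share library, scaling and tissue piece, and low counts limit r for the scarce arms.

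Of 552 other tested miRNAs, the 5 whose log2 CPM was most correlated with the mean of the 3 guide arms over the 24 libraries were miR-16-5p (r 0.907), miR-15b-5p (0.855), miR-187-3p (0.847), miR-19a-3p (0.846) and miR-374b-5p (0.842). These r describe likeness of pattern only. miR-16-5p and miR-15b-5p belong to the miR-15/16 family, and miR-19a-3p comes from the Mir17hg cluster. miR-92a-3p ranked 7 (0.815), miR-17-5p ranked 10 (0.795) and miR-20a-5p ranked 20 (0.751).

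The Mir17hg cluster, which runs from miR-17 to miR-92a, and the miR-106a-363 cluster carry paralogues of the same hairpins, the first on chromosome 14 and the second on X. At week 1 of diet, 10 of the 11 tested arms of the Mir17hg cluster had values below 0, with a median log2 fold change of -0.44, beside -0.02 over all miRNAs. miR-92a-3p is counted there, but its sequence is encoded in both clusters and its reads cannot be assigned to either. The 5 other tested arms of miR-106a-363 were below 0; miR-106a-5p, miR-20b-5p and miR-363-3p lay between -1.63 and -1.36, and miR-18b-5p and miR-363-5p lay near the counting floor in the high-fat libraries. miR-92a-3p, which has the seed of miR-25-3p, was the most abundant paralogue and averaged 2891 ± 416 CPM on the high-fat and 4516 ± 984 CPM on the control diet. Its log2 fold change was -0.64 ± 0.23, with an adjusted p of 0.225 by edgeR.

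The relatives with the AAAGUGC seed were below 0 at week 1 in all 4 tested cases. miR-17-5p averaged 533 ± 54.2 CPM on the high-fat and 643 ± 115 CPM on the control diet, which gives a log2 fold change of -0.27 ± 0.19. miR-20a-5p gave -0.25 ± 0.21, while the X-linked miR-106a-5p and miR-20b-5p gave -1.53 ± 0.67 and -1.63 ± 0.60. The scarcer miR-20b-5p averaged 29.6 ± 21.0 CPM on the high-fat and 91.3 ± 46.8 CPM on the control diet. Of the relatives with the AUUGCAC seed, miR-32-5p gave -0.30 ± 0.21, miR-92b-3p -0.29 ± 0.27 and miR-363-3p -1.36 ± 0.54. None of these relatives passed the test, and the difference between their values and those of the miR-106b-25 arms was not tested. At day 1, 9 of 11 arms of the Mir17hg cluster and 4 of those 5 of miR-106a-363 had values above 0, and none passed.

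The level of leukocyte miRNAs was correlated with that of the guide arms. The list held 12 names, among them miR-223-3p, miR-142a-3p, miR-155-5p and miR-150-5p; all 12 were tested and none was at 0 throughout. The mean log2 CPM of the list correlated with that of the 3 guide arms over the 24 libraries at r 0.757 (rho 0.809), and at 0.744 after centring within groups. By arm, r was 0.821 for miR-25-3p (rho 0.891), 0.599 for miR-106b-5p, 0.567 for miR-93-5p, 0.252 for miR-106b-3p, 0.242 for miR-25-5p and 0.150 for miR-93-3p. Without the 2 libraries farthest from the median of the list, r was 0.780 for miR-25-3p and 0.683 for the guide mean. These values describe libraries that share scaling and tissue piece. The other 7 marker lists gave r with the guide mean of -0.53 for adipocyte, -0.42 for erythrocyte, -0.40 for skeletal muscle, -0.26 for smooth muscle and pericyte, -0.24 for fibroblast, -0.19 for epithelium and 0.25 for endothelium miRNAs. After centring within groups these were -0.60, -0.61, -0.51, -0.26, -0.15, -0.10 and 0.29 in the same order.

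**Figure D4:**
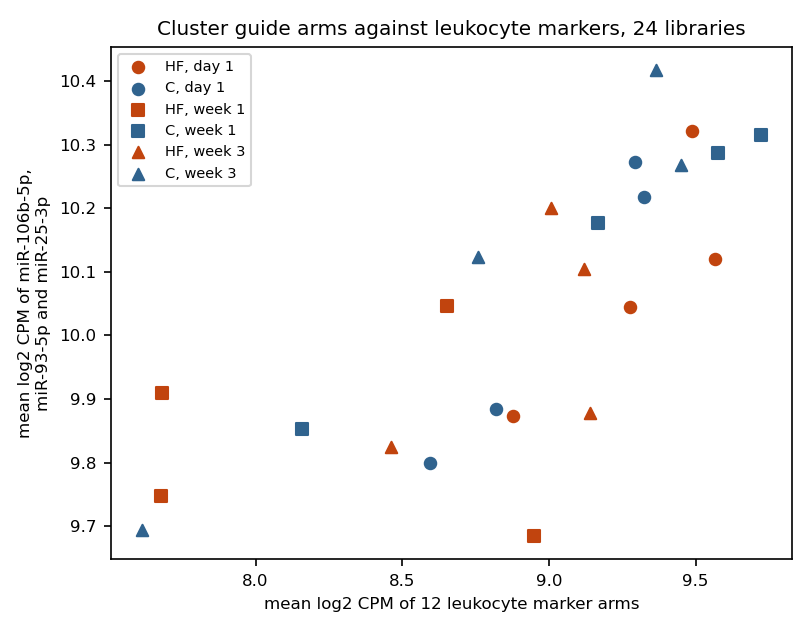
Mean log2 CPM of miR-106b-5p, miR-93-5p and miR-25-3p against the mean log2 CPM of 12 leukocyte marker arms, 1 point per library, coloured by diet (HF, high-fat; C, control) and shaped by time. Libraries with more leukocyte miRNAs had more of the guide arms (r 0.757), and 2 of the high-fat week 1 libraries are among the lowest on the horizontal axis.

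At week 1 the leukocyte list summed to 6853, 22353, 6544 and 18152 CPM in the high-fat libraries, against 42275, 51000, 32358 and 12277 CPM in the control libraries. The lowest control library for the list was also the lowest for miR-25-3p. The high-fat libraries did not keep this order. Replicate 2, with the highest list sum of that group, had 2135 CPM of miR-25-3p, against 2171 CPM in replicate 1, with a sum of 6853 CPM. Of the 12 leukocyte arms, 8 had values below 0, with a median log2 fold change of -1.11. Values of other marker lists at week 1 were as follows. Values above 0 were found for 7 of 7 epithelium arms (median 0.38), 5 of 5 erythrocyte arms (0.32), 4 of 4 fibroblast arms (0.24) and 5 of 5 tested skeletal muscle arms (0.66), and values below 0 for 5 of 6 tested adipocyte arms (-0.13). Mixed lists were endothelium, with 1 of 2 tested arms above 0 (median -0.13), and smooth muscle and pericyte, with 2 of 4 (0.08). No arm of these lists passed, and their part in the cluster's values was not tested. The leukocyte sums at the other times were 24331 to 52570 CPM on the high-fat and 18025 to 40891 CPM on the control diet at day 1, and 14662 to 29397 CPM on the high-fat and 5894 to 36906 CPM on the control diet at week 3. With the leukocyte and muscle means as covariates, miR-25-3p at week 1 gave -0.13 ± 0.15 in place of -0.48 ± 0.19, with an adjusted p of 0.9754 by edgeR. The same fit gave 0.04 ± 0.16 in place of -0.41 ± 0.19 for high-fat week 1 over day 1. Without the 3 libraries highest in muscle miRNAs, the week 1 diet difference of miR-25-3p was -0.61 ± 0.21 (adjusted p 0.0701 by edgeR). Those libraries include control week 1 replicate 4, the lowest control library for miR-25-3p. Leaving out that library alone gave -0.55, and leaving out control week 1 replicate 2 alone gave -0.33. Over all single omissions the adjusted p ran from 0.0583 to 0.668 by edgeR. The part of leukocyte or muscle content in these differences was not tested. For miR-106b-3p, averaged over the diets, week 3 over day 1 gave 0.52 ± 0.18 with the covariates (adjusted p 0.0507 by edgeR) in place of 0.48 ± 0.16, and 0.50 ± 0.17 (adjusted p 0.0671) without the muscle-rich libraries.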

How the data were processed

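The deposited table holds raw counts of reads per mature miRNA name, 1 column for each of 24 libraries made by the authors. Per the submitters' processing notes, the tools were FastQC, Trim Galore, Bowtie2 and featureCounts and the build was mm10. How reads that match several miRNA names were counted is not given, so counts of near-identical relatives are uncertain. RNA was extracted with TRIzol and libraries were made with the NEBNext small RNA set, per the labels' protocols. The cluster, the lists and the comparisons were chosen with earlier results of these data known. Of 1907 names, 440 were at 0 in all libraries and 558 passed filterByExpr (minimum count 10, minimum total 15); the 1349 left out held 0.0179% of counts. In each group of 4, no pair of libraries agreed within sampling noise (lowest chi-square per degree of freedom 82.2). A model of the 6 group means was fitted to all 24 libraries with edgeR 4.0.16 in R 4.3.3 (TMM, robust quasi-likelihood test, two-sided, Benjamini-Hochberg adjusted p under 0.05; biological coefficient of variation 0.359), giving 13 comparisons. It was tried on simulated data with larger changes than any fitted for the arms, which leaves its power at smaller changes unmeasured. Errors are SE for log2 fold changes and SD over 4 libraries for levels; intervals are 95%, and floors (3 counts) cover counting error only. Library correlations used log2 CPM with a prior count of 2 and 1e+05 permutations, for which the smallest p is 1e-05. Alternatives were RLE size factors, library totals, other filters, DESeq2 1.42.0, limma 3.58.1 (voom), a replicate block, marker covariates, and leaving out each library or the 3 with most muscle miRNA. Named were the 6 arms, their paralogues and seed relatives, and the 5 miRNAs most correlated with the guide arms.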

Additional observations from a re-analysis of the deposited data

How the results depend on the processing

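No arm passed the threshold under any alternative except miR-106b-3p for week 3 over day 1 averaged over diets. Of the values of single arms under the alternatives other than leaving out 1 library, 577 moved by less than their SE without changing their call, 15 moved by more, and 2 passed the threshold, both for miR-106b-3p. The counts of miRNAs passing moved by over 1.5 times as follows. In high-fat over control at week 1 (0), 17 passed with limma-voom and 31 without the 3 muscle-rich libraries. In high-fat week 1 over day 1 (0), 32 passed with DESeq2, 44 with limma-voom and 9 without the muscle-rich libraries; in high-fat week 3 over day 1 (0), 1 with no filter, 3 at a mean of 10 CPM, 11 with DESeq2, 14 with limma-voom, 1 without the muscle-rich libraries and 9 with the marker covariates. In control week 1 over day 1 (1), 0 passed with no filter, 7 with DESeq2, 22 with limma-voom and 2 without the muscle-rich libraries; in control week 3 over day 1 (2), 0 with no filter, 1 at a mean of 10 CPM, 6 with DESeq2, 4 with limma-voom and 16 with covariates. For week 3 over day 1 averaged over diets (40), 19 passed with no filter, 71 with DESeq2, 91 with limma-voom and 81 with covariates. The cause was not tested. Leaving out 1 library gave 0 to 22 calls for the diet at week 1 (22 without control replicate 4), 0 to 2 for its mean over times (2 without high-fat week 3 replicate 2), 0 to 4 for high-fat week 1 over day 1 (4 without high-fat week 1 replicate 2), 0 to 3 for high-fat week 3 over day 1, 0 to 13 for control week 1 over day 1 (13 without control week 1 replicate 4), 0 to 4 for control week 3 over day 1 (4 without control day 1 replicate 1) and 20 to 46 for the averaged week 3 over day 1 (20 without control week 3 replicate 1, 21 without high-fat week 3 replicate 3). With library totals alone, r of the miR-106b arms was 0.402 (adjusted permutation p 0.0505) and r of the miR-25 arms 0.478 (0.0208), with 0.783 (0.00014) for the miR-93 arms, and without the 2 farthest libraries r was 0.437 and 0.418 for the miR-106b and miR-93 arms. Library totals also moved the median of all miRNAs for high-fat week 3 over week 1 to -0.13, against -0.02 with TMM. Whether equal replicate numbers pair libraries is not given by the labels and was not established from the values: 7 of 12 pairs deviated together at r over 0.1, within -0.51 to 0.45, and 6 matched their own number best. With a replicate block, diet comparisons again gave 0 calls. Depth limits miR-25-5p and miR-93-3p most.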
